A study of Drosophila melanogaster with 2 samples.

Results

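The cytosolic small ribosomal subunit of Drosophila melanogaster is encoded here by 39 protein-coding genes, chosen by name: every annotated symbol that begins with RpS and a digit, plus sta (stubarista). They were 39 of the 13945 protein-coding genes on the main chromosome arms. The measurement was chromatin immunoprecipitation and sequencing with an antibody against GFP, on whole embryos of both sexes collected over 0-24 hours, from a transgenic line that stably makes the transcription factor Mad with GFP at its C-terminus. The labels give 1 group of 2 biological replicates, both of that line, stage and antibody, and no second condition. They do not say what drives the fusion or whether untagged Mad remains in the line. The peaks were called by the authors against a control, which was not used here. The sources used here do not give how deeply each library was read. Peaks in whole embryos do not tell how many cells, or which, carried the protein at a site.

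Small-subunit proteins fold around the 18S ribosomal RNA into a head, a body and a platform, and form the part of the ribosome that reads the messenger RNA. Their genes are active in nearly all growing cells, and many are Minute loci, where loss of a gene copy delays development and thins the bristles. Mad is the Smad protein that carries signals from bone morphogenetic protein receptors to the nucleus. Promoters of ribosomal protein genes in flies often start transcription at a pyrimidine-rich TCT initiator, and the factors DREF and M1BP are known at promoters of this housekeeping kind.

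A thresholded summit, meaning the highest point of a peak kept by the authors' threshold on reproducibility between replicates, lay within 500 bp of an annotated transcription start site (TSS) at 25 of the 39 small-subunit genes (64.1%). The same held for 2753 of all 13945 protein-coding genes, a background of 19.7%. At 24 of the 25 no other protein-coding gene had a TSS closer to the summit than the gene's own. All 24 summits lay within 100 bp of the gene's closest annotated TSS. Here and below, a summit position is measured from that closest TSS, which can differ from the main TSS used for sequences. The strongest peak, at RpS27, had a signal of 605 and was number 31 of the 3590 thresholded peaks. In 5 of the 6 families of duplicated small-subunit genes exactly 1 copy had a thresholded promoter summit, and in every such family that copy was on the X chromosome. The signal is the value written by the authors' peak caller, and the sources used here do not state its formula. No test was made of these shares, since the series has no second condition and genes are not replicates.

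The promoter DNA under several of these summits is shown from 100 bases before to 20 bases after the main annotated TSS, read 5′ to 3′ on the strand of the gene, from the release 6 reference genome (dm6). RpS27 is shown because it had the strongest peak (chr3R:25247495-25247614 on the minus strand), RpS28b (chrX:9554523-9554642 on the plus strand) and RpS19a (chrX:16637794-16637913 on the plus strand) because they share a long word near the summit, and RpS25 (chr3R:11216268-11216387 on the minus strand) and RpS12 (chr3L:13023252-13023371 on the plus strand) because each has a full DREF site. RpS6 (chrX:7901312-7901431 on the minus strand) is shown as a gene with such a site and no thresholded summit. Capitals mark a DREF site (TATCGATA), the E-box CAGCTG, the TCT start, which is CTTT near the TSS, or the shared word of 16 bases.
RpS27: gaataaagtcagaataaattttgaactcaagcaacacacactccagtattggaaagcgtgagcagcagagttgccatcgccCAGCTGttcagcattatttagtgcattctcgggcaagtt
RpS28b: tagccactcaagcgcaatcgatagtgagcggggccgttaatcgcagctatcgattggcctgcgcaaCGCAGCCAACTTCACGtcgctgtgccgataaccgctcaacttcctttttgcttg
RpS19a: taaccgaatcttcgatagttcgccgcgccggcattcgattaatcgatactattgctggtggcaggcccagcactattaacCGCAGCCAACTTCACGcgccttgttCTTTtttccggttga
RpS25: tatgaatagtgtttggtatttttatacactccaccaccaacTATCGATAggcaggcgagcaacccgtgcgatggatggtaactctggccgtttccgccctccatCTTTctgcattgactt
RpS12: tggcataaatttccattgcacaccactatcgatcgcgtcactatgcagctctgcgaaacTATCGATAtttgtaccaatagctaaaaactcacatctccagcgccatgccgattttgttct
RpS6: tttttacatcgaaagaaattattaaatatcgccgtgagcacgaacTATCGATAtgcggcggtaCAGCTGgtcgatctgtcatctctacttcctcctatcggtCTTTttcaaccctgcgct

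Duplicated genes are shown in pairs, since the copies differed in whether the promoter had a thresholded peak. RpS5a (chrX:17148245-17148364 on the minus strand) had one and RpS5b (chr3R:14901544-14901663 on the minus strand) did not. RpS28a (chr3R:30022629-30022748 on the minus strand) had none, against RpS28b shown above. RpS14a (chrX:7933642-7933761 on the plus strand) and RpS14b (chrX:7934798-7934917 on the plus strand) are neighbours in tandem and both had one. Capitals mark the same 3 short motifs as above.
RpS5a: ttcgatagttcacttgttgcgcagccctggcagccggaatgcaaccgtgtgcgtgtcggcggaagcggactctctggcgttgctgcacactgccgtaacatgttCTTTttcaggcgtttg
RpS5b: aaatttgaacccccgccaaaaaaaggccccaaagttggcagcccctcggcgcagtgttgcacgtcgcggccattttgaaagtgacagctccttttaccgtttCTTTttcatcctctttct
RpS28a: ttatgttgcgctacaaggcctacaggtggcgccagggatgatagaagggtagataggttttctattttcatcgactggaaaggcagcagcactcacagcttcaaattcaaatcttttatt
RpS14a: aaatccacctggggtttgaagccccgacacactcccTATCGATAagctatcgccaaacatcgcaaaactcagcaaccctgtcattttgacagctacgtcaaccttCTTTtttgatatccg
RpS14b: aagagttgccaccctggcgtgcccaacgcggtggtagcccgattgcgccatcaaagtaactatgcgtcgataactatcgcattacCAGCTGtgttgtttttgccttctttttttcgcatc

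RpS14a and RpS5a both carry the CTTT start, as does RpS5b, so this start is present in copies with and without a thresholded peak. RpS14a holds a full DREF site that its tandem copy RpS14b lacks, while RpS14b holds an E-box. RpS28a holds none of the marked motifs.

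Taking the head of the subunit first, 12 of 19 genes had a thresholded promoter summit. RpS20 codes for a protein of the head that is shared across all domains of life. Its peak reached 286 in the pooled list, 131 in replicate 1 and 153 in replicate 2, and the summit lay 195 bp upstream of its TSS. That summit was 138 bp from the TSS of the neighbour CG17271, so RpS20 is the only one of the 25 whose peak was nearer to another gene. RpS28b, whose protein lies near the mRNA exit side of the head, had a pooled signal of 246 (123 in replicate 1 and 122 in replicate 2) with the summit 26 bp upstream. RpS25, a protein used by several viral internal ribosome entry sites, had 242 (124 and 126 in replicates 1 and 2) with the summit 64 bp upstream. The peaks of RpS28b and RpS25 differed little between replicates.

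RpS16, whose tail reaches the transfer RNA in the peptidyl site, had a pooled signal of 208 (91.2 in replicate 1 and 117 in replicate 2). Its summit lay 68 bp upstream of its closest TSS but downstream of its main TSS. RpS10b, a head protein near the mRNA entry, had 197 (90.9 and 108) with the summit 3 bp upstream. RpS29, a small zinc-binding protein, had 191 (65.6 and 124) with the summit 21 bp downstream. RpS29 was among the members with the largest gap between replicates, on the log2 scale 0.92 higher in replicate 2.

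RpS5a, which contacts the exit-site transfer RNA and is a Minute locus, had a pooled signal of 169 (68.8 in replicate 1 and 101 in replicate 2), with the summit 70 bp upstream. RpS18, a head protein near the peptidyl site, had 158. RpS19a, needed for maturation of the 18S RNA, had 116 (53.5 and 65.8) with the summit 1 bp upstream. These 3 lay in the upper and middle part of the members' range. RpS12, a protein studied in flies for its part in cell competition, had 114, and RpS27A, which is made as a fusion with ubiquitin, had 102. The summit of RpS27A lay 52 bp upstream of its TSS in a promoter whose start it shares with Ip259, so that peak cannot be assigned to either gene alone.

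Of the genes for proteins of the body and platform, 13 of 20 had a thresholded promoter summit. RpS27, which codes for a zinc-binding protein of the platform, stood apart at 605 in the pooled list, 285 in replicate 1 and 320 in replicate 2. Its peak spanned chr3R:25247381-25247651 and the summit lay 3 bp downstream of the TSS. RpS21, known in flies for tumour-like overgrowth of blood-forming tissue when mutant, had 209 (108 and 96.6). Its summit lay 2 bp downstream of its closest TSS and upstream of its main TSS. RpS4, a protein of the body, had 178 (101 and 86.6) with the summit 6 bp upstream. The peak of RpS27 was the highest of all 25 in the pooled list and in both replicates, while those of RpS21 and RpS4 were close to one another.

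RpS23, whose protein sits at the decoding centre, had a pooled signal of 187 (82.2 in replicate 1 and 107 in replicate 2) with the summit 24 bp downstream. RpS15Aa, a protein that binds the central domain of the 18S RNA, had 173 (84.7 and 89.5). Its summit lay 22 bp downstream of its closest TSS and upstream of its main TSS. The gene sta had 117 (58.4 and 60.2), and RpS3A, the only member on chromosome 4, had 115 (69.1 and 43.6). RpS3A is a neighbour of the mRNA exit channel, and its log2 ratio of replicate 2 over replicate 1 was -0.67. RpS7 had 107 and RpS30 had 104, both below the members' median.

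The remaining genes, for proteins of the platform near the mRNA exit, had signals closer to the threshold. RpS14b had a pooled signal of 91.9 (40.5 in replicate 1 and 53.8 in replicate 2). RpS26 had 82.9, with 27.0 in replicate 1 and 60.1 in replicate 2, a log2 difference of 1.16, the highest of the 25. RpS14a had 72.6, with 54.7 in replicate 1 and 22.5 in replicate 2, a log2 difference of -1.28, the lowest. The replicate 1 value of RpS14a came from an overlapping peak whose summit lay 219 bp upstream, and the replicate 1 peak with a summit within 100 bp of the pooled one had 37.0. RpS14a was the member just inside the threshold at 72.6, and RpS28a, at 63.7 in the pooled list, the member just outside it, while the lowest signal of any thresholded peak was 70.5. That RpS28a summit lay 424 bp downstream of its TSS and was nearest to Mgat2. RpS13 came next at 63.5, with the summit 3 bp from a TSS of its own.

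**Figure D1:**
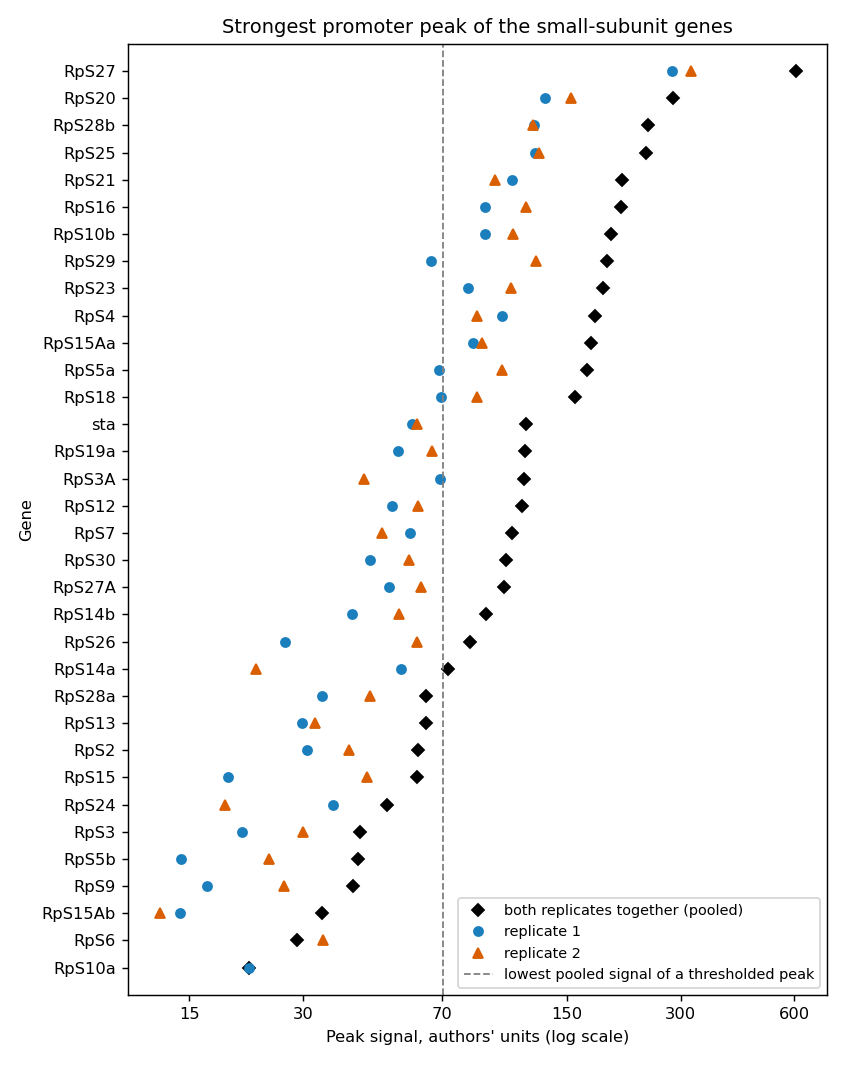
Signal of the strongest promoter peak at 34 small-subunit genes (horizontal axis, authors' units, log scale; 1 gene per row), with both replicates together as diamonds, replicate 1 as circles and replicate 2 as triangles. RpS27 stands apart at 605, and the 23 genes drawn right of the dashed line at 70.5 have a thresholded peak. RpS19b and RpS28-like had no promoter peak, and they and 3 further genes, 2 of them with a thresholded peak, are not drawn.

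Of the 14 members without a thresholded promoter summit, 12 had a promoter summit in the authors' pooled list of 30000 entries, and 2 had none in either list. The authors name the pooled list peaks and background, and its lowest signal is 20.9. An entry in it alone is thus not shown to be a bound site. With the thresholded ones counted too, 37 of the 39 small-subunit genes (94.9%) had a pooled promoter summit, against a background of 55% of all protein-coding genes. The pooled signals of the 12 ran from 21.6 to 63.7 with a median of 46.3. RpS19b and RpS28-like were the members with none.

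RpS13, a Minute gene of the body, had a pooled signal of 63.5 (29.9 in replicate 1 and 32.3 in replicate 2). Its summit lay 3 bp downstream of its closest TSS, which is not its main TSS. RpS2, at the mRNA entry, had 60.6 with the summit 1 bp downstream (30.8 and 39.7), and RpS15, near the decoding side of the head, had 60.3 (19.0 and 44.4). These 3 summits lay as close to a TSS of the gene as those of the thresholded genes. RpS24 had 50.1 (36.0 and 18.7), and among these genes it alone was higher in replicate 1. RpS3, at the mRNA entry and a Minute locus, had 42.4 (20.7 and 30.1), and RpS9, also at the mRNA entry, had 40.8 (16.7 and 26.8). Some of these replicate values come from overlapping peaks with the summit over 100 bp from the pooled one. Matched by summit, replicate 2 of RpS2 had 34.2, replicate 1 of RpS3 had 15.1 and replicate 1 of RpS9 had none.

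RpS6, the substrate of S6 kinase, had a pooled signal of 28.9 and was listed in replicate 2 only, at 34.0. RpS10a had 21.6 and was listed in replicate 1 only, also at 21.6, with the summit 211 bp upstream. RpS5b had 41.9 (14.3 in replicate 1 and 24.4 in replicate 2) with the summit 185 bp upstream, and RpS15Ab had 33.8 (14.2 and 12.6) with its summit nearest to the TSS of Lsm10. RpS28a had 63.7 (33.6 and 45.2), but that summit lay 424 bp downstream of its TSS and was nearest to Mgat2, and replicate 2 had no summit within 100 bp of it. Its next pooled summit, 133 bp upstream, was nearest to Axn and had 50.7. At RpS15Ab and RpS28a the strongest listed peak was thus nearer to another gene, and at RpS5b, RpS6 and RpS10a it was nearest to the gene's own TSS.

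The 13 duplicated members divided by chromosome. All 7 copies with a thresholded promoter summit were on the X (RpS5a, RpS10b, RpS14a, RpS14b, RpS15Aa, RpS19a and RpS28b). None of the 6 copies without one was on the X (RpS5b, RpS10a, RpS15Ab, RpS19b, RpS28a and RpS28-like). Set side by side, the X-linked and the autosomal copy had 197 and 21.6 in RpS10, and 173 and 33.8 in RpS15A. For RpS28 the X-linked copy had 246, while RpS28a had 63.7 at a neighbour's promoter and RpS28-like had none. For RpS19 the X-linked copy had 116 and RpS19b had none. RpS5b, RpS10a and RpS19b are known for expression enriched in the germline. Of the single-copy members, 18 of 26 had a thresholded summit, and of the 2 on the X sta had one and RpS6 did not. The RpS14 genes are the only family with both copies on the X. Chromosome and identity of the copy cannot be told apart in the other 5.

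By chromosome, 8 of 9 members on the X had a thresholded promoter summit, against 17.8% of all protein-coding genes there. The members on the large autosomal arms counted 3 of 6 on 2L, 3 of 7 on 2R, 3 of 4 on 3L and 7 of 12 on 3R, and the shares of all protein-coding genes on these arms lay between 19% and 21.5%. Genes for small nucleolar RNAs lie within 10 of the 25 members with a thresholded summit and within 3 of the 14 without, against 1.85% of genes with a promoter summit and 0.688% of all protein-coding genes. A second protein-coding TSS in divergent orientation lay within 1000 bp at 15 of the 25 (60%) and at 6 of the 14 (42.9%), against 55.6% of genes with a promoter summit and 31.6% of all protein-coding genes.

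**Figure D2:**
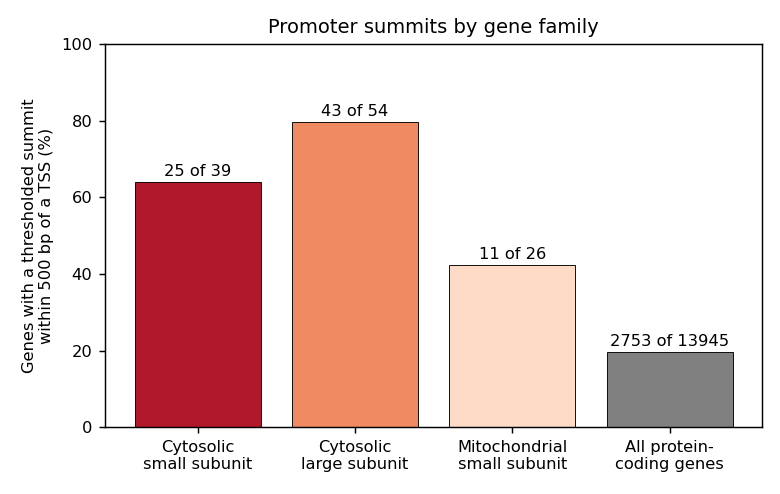
Share of genes with a thresholded summit within 500 bp of a TSS (vertical axis, percent), for the cytosolic small-subunit genes, the cytosolic large-subunit genes, the mitochondrial small-subunit genes and all protein-coding genes. The small-subunit bar stands at 64.1%, below the large-subunit bar at 79.6% and above the mitochondrial bar at 42.3% and all genes at 19.7%.

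The small-subunit share, 64.1%, lay below that of the cytosolic large-subunit genes (43 of 54, 79.6%) and above that of the mitochondrial small-subunit genes (11 of 26, 42.3%). Whether these families differ was not tested. The median signal of the promoter peaks was 158 in the small-subunit genes and 158 in the large-subunit genes, against 95.5 in the mitochondrial genes and 115 over all genes with a promoter summit. Counted from the strongest of the thresholded peaks, the small-subunit median lay at percentile 23.5 and that of all genes with a promoter summit at percentile 43.6. The members' signals ran from 72.6 to 605 and their ranks from 31 to 3428 of the 3590 thresholded peaks.

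The count of members depended on the rule for a promoter. With a distance of 250 bp there were 25 members against a background of 16.6%, and with 1000 bp 28 members against 22.4%, where RpS15, RpS19b and RpS6 were added. The summit added at RpS6 was nearest to bys, 35 bp from its TSS. Those added at RpS15 and RpS19b are not assigned to a gene here. When a summit was given only to the gene with the nearest TSS, 24 remained, without RpS20, and the background was 14.3%. With only the most upstream TSS of each gene the count was 25 against 17.9%. Among the 1000 strongest peaks alone it was 13 against 6.5%, and the weaker members from sta downward dropped out. With the 3590 strongest peaks of replicate 2 alone the count was 25 against 19.5%, and of replicate 1 alone 26 against 19.8%. In those lists 21 members had a promoter summit in both. RpS14a was among 3 members lost without replicate 1, while RpS15, RpS2 and RpS6 were gained. RpS26 was lost without replicate 2, while RpS24 and RpS28a were gained. The gain of RpS6 came from the peak of its neighbour bys, which ranked 3287 in replicate 2, while its own peak ranked 4627. RpS28a was gained through a replicate 1 peak 412 bp downstream of its TSS, by the TSS of Mgat2.

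The summits of the members sat at or near an annotated start of transcription, measured from the closest TSS of each gene. Among the 24 whose own TSS was nearest, the summit position ran from 70 bp upstream to 99 bp downstream, with a median of -21 bp (negative is upstream). Over the 1954 protein-coding genes with that property the median was -74.5 bp. Of the members 24 of 24 were within 100 bp and 15 of 24 (62.5%) within 50 bp, against 55.8% and 30.1% of those 1954 genes. Over all 43 cytosolic large-subunit genes with a promoter summit the median was -30 bp, with 62.8% of the summits within 50 bp and 86% within 100 bp. Upstream of the TSS lay 16 of 24 (66.7%), against 82.9%. In 7 of the 25 the peak was narrower than the 396 bp that most thresholded peaks have (28%), against 14.9% of all genes with a promoter summit. Narrow peaks were also found at the large-subunit genes, where the lower quartile of width was 206.5 bp, against 271 bp in the members. No member had more than 1 thresholded promoter summit.

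**Figure D3:**
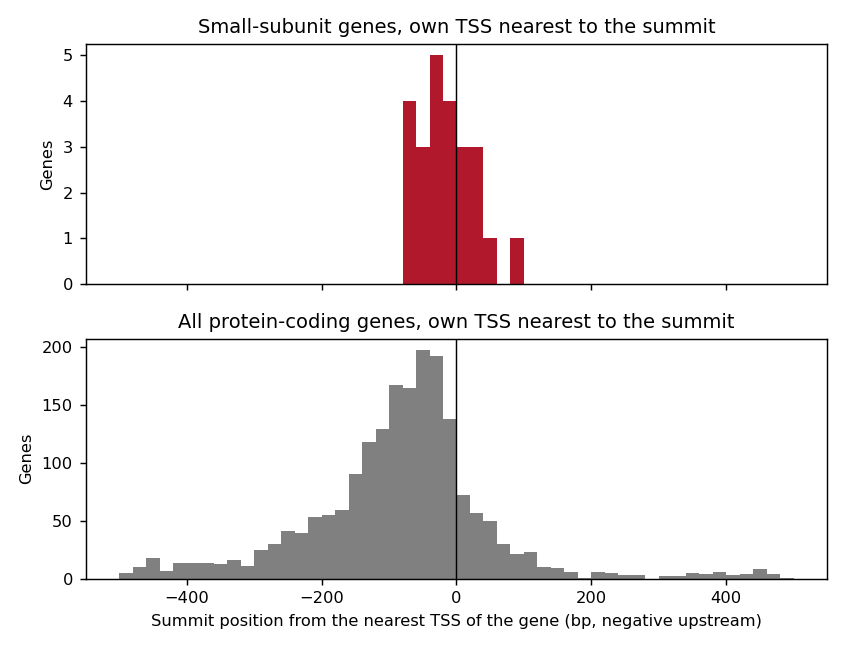
Number of genes (vertical axes) by position of the thresholded summit from the nearest TSS of the gene (horizontal axis, bp, negative upstream), for small-subunit genes above and all protein-coding genes below, where the gene's own TSS was nearest. The 24 small-subunit summits all lie within 100 bp of the TSS, with a median of -21 bp, against -74.5 bp over all 1954 genes.

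Replicate 2 had the higher signal at 17 of the 25 members (68%), against 2002 of 2749 genes with a promoter summit and a peak in both replicates (72.8%). The median log2 ratio of replicate 2 over replicate 1 was 0.23 in the members and 0.24 over those genes, so the shift toward replicate 2 was that of the whole list. The sources used here do not state whether the replicates' signals share a scale. Across the 25 members the replicates had a Spearman correlation of 0.794 and a Pearson correlation of log2 signals of 0.795. These genes share both libraries. Their peaks were kept by a threshold on reproducibility between these same replicates, so part of this agreement is built in. The 3 highest ratios belonged to RpS26 (1.16), RpS29 (0.92) and RpS5a (0.56), and the lowest to RpS14a (-1.28) and RpS3A (-0.67). Each of these except RpS29 and RpS5a lay in the lower part of the members' signals.

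**Figure D4:**
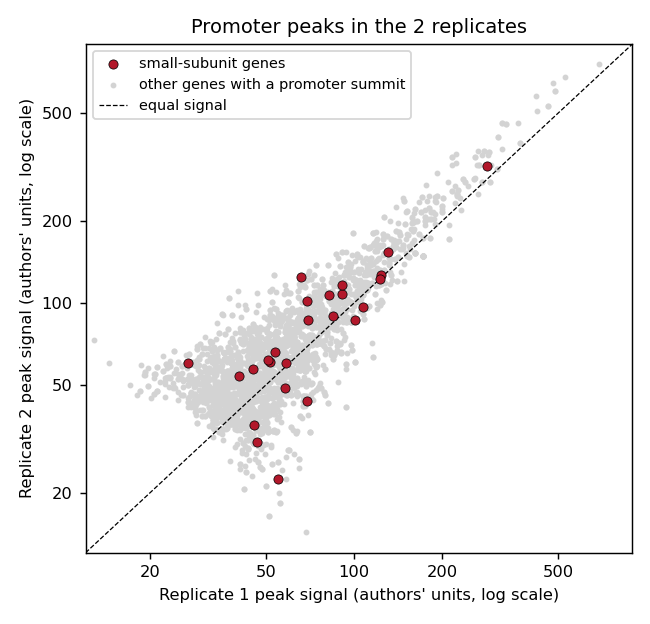
Peak signal in replicate 1 (horizontal axis) and replicate 2 (vertical axis), authors' units on log scales, for small-subunit genes with a thresholded promoter summit and for the other genes with one. The dashed line is equal signal; 17 of 25 small-subunit genes lie above it, and RpS26 and RpS14a lie farthest from it among them.

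Known promoter sequences were sought in windows from 250 bp before to 50 bp after the main TSS, on both strands, and set beside the same windows of all protein-coding genes. The DREF site TATCGATA was in 13 of the 39 members (33.3%), against 14.7% of genes with a promoter summit and 8.94% of all genes. It was in 9 of the 25 members with a thresholded summit (RpS7, RpS10b, RpS12, RpS14a, RpS15Aa, RpS16, RpS25, RpS29 and RpS30) and in 4 of the 14 without (RpS6, RpS13, RpS15Ab and RpS24). The site began 59 bp upstream of the TSS in RpS25, 41 bp in RpS12, 63 bp in RpS30, 64 bp in RpS14a and 55 bp in RpS6. Its core CGATA, which overlaps the full site and which the insulator protein BEAF also binds, was in 28 of 39 (71.8%), against 55.8% of genes with a promoter summit and 47% of all genes. Within 100 bp of the summit the full site was in 8 of the 25 (32%), against 11% of genes with a promoter summit.

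The TCT start, here CTTT beginning within 5 bp of the TSS on the coding strand, was in 17 of the 39 members (43.6%), against 6.14% of genes with a promoter summit and 5.72% of all genes. It was in 12 of the 25 members with a thresholded summit and 5 of the 14 without. The M1BP site GGTCACACT was in 4 of 39 (10.3%), in sta, RpS9, RpS15 and RpS23, against 9.99% and 5.87%. The E-box CAGCTG was in 6 of 39 (15.4%), with 3 copies in RpS21, against 23.2% and 17.9%. These counts describe letters in a window and not bound sites.

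For sequences linked to Mad itself the 39 members were, in the promoter window, near or below the share of other promoters. The GC-rich Mad site GCCGNCG was in 3 of 39 members (7.69%), RpS10b, RpS19a and RpS27, against 10.7% of genes with a promoter summit and 10.6% of all genes. All 3 had a thresholded summit, which is 12% of the 25 members with one. Within 100 bp of the summit it was in 2 of the 25 (8%), against 4.94% of genes with a promoter summit. The palindrome GTCTAGAC was in 0 of 39, against 0.145% and 0.151%. The GAGA site GAGAGAG was also in 0 of 39, against 6.57% and 6.21%, and the Zelda site CAGGTAG in 0 of 39, against 1.13% and 1.72%. The palindrome and the Zelda site are so rare in all promoters that 39 genes cannot show a lower share.

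**Figure D5:**
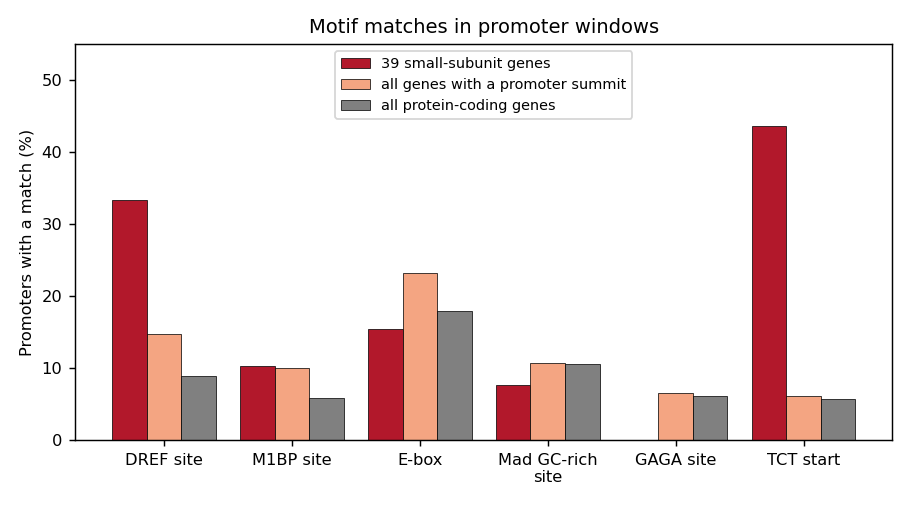
Share of promoters with at least 1 match (vertical axis, percent) for 6 sequences, in the 39 small-subunit genes, in all genes with a promoter summit and in all protein-coding genes. The small-subunit bar is the highest of the 3 for the DREF site (33.3%), the TCT start (43.6%) and, by little, the M1BP site (10.3%, against 9.99% and 5.87%), and there is none for the GAGA site.

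A search for the longest word that 3 or more members share on the coding strand, from 100 bp before to 20 bp after the TSS, gave 1 word of 16 bases. It was chosen after the sequences were seen, so it is a description. RpS19a (chrX:16637874-16637889 on the plus strand), RpS21 (chr2L:2856083-2856098 on the plus strand) and RpS28b (chrX:9554589-9554604 on the plus strand) carry it in full. It began 20, 28 and 34 bp upstream of the main TSS in that order, and its middle lay 11, 18 and 0 bp from the summit. Copies with at most 2 different bases were found at RpS27 (chr3R:25247483-25247498 on the plus strand) and at 4 large-subunit genes, RpL13 (chr2L:9967310-9967325 on the minus strand), RpL28 (chr3L:3222977-3222992 on the minus strand), RpL34b (chr3R:9401246-9401261 on the minus strand) and RpL27A (chr2L:4458316-4458331 on the minus strand). They are listed with each base that differs from the word in capitals.
RpS19a: cgcagccaacttcacg
RpS21: cgcagccaacttcacg
RpS28b: cgcagccaacttcacg
RpS27: cgcagccaacttAacT
RpL13: cgcaAccaacttcacg
RpL28: cgcagccaacttcGcg
RpL34b: cgcagccaaGttcacg
RpL27A: cgcagccaacttcGcT

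All 8 of these ribosomal promoters had a thresholded summit, between 0 and 54 bp from the middle of the word. Their signals ran from 116 at RpS19a to 605 at RpS27. With or without the word, 64.1% of the small-subunit and 79.6% of the large-subunit genes had a thresholded promoter summit. Among 13944 windows around the main TSS of protein-coding genes the full word was in 3, the small-subunit genes just named. With at most 1 different base it was in 12, of which 10 had a thresholded summit at 8 separate peaks, and with at most 2 in 20, of which 14 did at 11 separate peaks. Neighbours that share a copy and a peak are counted as separate genes there: RpL13 with Dref, RpL34b with CG8132, and RpS27 with Nup37. The genes with at most 2 different bases and no thresholded summit were Hasp, Iswi, CG14439, CG3222, CycC and UQCR-C1, none of them ribosomal. Away from the 39 small-subunit promoters the arms held 14 places with exactly 1 different base, and 6 of them lay within 100 bp of a thresholded summit. Those 6 include the copies at RpL13, RpL28 and RpL34b already listed. All 6 were among the 10 places within 500 bp of a TSS. Of all bases 0.539% lay within 100 bp of a thresholded summit, a share that is not limited to promoters. Per gene, 19.7% of all protein-coding genes have a thresholded summit within 500 bp of a TSS, a different unit and distance. Of 73 places with exactly 2 different bases 4 lay within 100 bp of a thresholded summit, the listed copy at RpL27A among them. Of these 4, 3 were among the 8 places within 500 bp of a TSS. Whether the word adds anything to promoter location was not tested. The only other full copy, on chromosome arm 3R, also lay at a promoter, 14 bp from an annotated TSS of CG5180. It had a pooled summit of signal 44.0 at 22 bp and its nearest thresholded summit 605 bp away.

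Genes that serve the small subunit were read by the same rule, from a list drawn up by hand by role. Of 9 genes for processing of the small-subunit RNA and late assembly 6 had a thresholded promoter summit, against the background of 19.7% of all protein-coding genes. These were Fib, the methyltransferase of box C/D small nucleolar particles (144), the particle proteins Nop56 (82.0) and nop5 (75.4), U3-55K of the U3 particle (88.6), bys (75.2) and the kinase RIOK1 (131). The genes hoip, wcd and RIOK2 had none. The summits at Fib, Nop56 and RIOK1 were nearest to the TSS of another gene.

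Rack1, a scaffold protein of the small-subunit head, had a summit at 155 (77.2 and 79.7 in replicates 1 and 2), while S6k, the kinase of RpS6, had a pooled peak only (52.4). Of 5 genes for promoter and growth factors 3 had one, against the same 19.7%. The summit of Dref (205) lay 3 bp from the TSS of RpL13 and that of M1BP (138) was nearest to CG8202, while Trl, which codes for GAGA factor, had its own (194). Trf2 and Myc had only pooled entries of 22.6 and 24.4, near the lowest signal of that list, 20.9.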

How the data were processed

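Peak lists were used for 2 biological replicates of anti-GFP chromatin immunoprecipitation from Mad-GFP embryos. The deposited lists on build dm6 give a signal per peak, a value written by the authors' peak caller against a control, per the deposited file notes. The sources used here name no aligner, caller or version and give no depth, so counting precision is unknown. Each replicate's list and the pooled list hold 30000 entries, and the list thresholded on reproducibility holds 3590 peaks. The pooled list is named by the authors as peaks and background.

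Genes and TSSs were taken from Ensembl release 115. A gene was counted when a thresholded summit lay within 500 bp of any of its TSSs, and its signal was that of the strongest such peak. A replicate's value is its strongest peak overlapping by at least 1 bp. Motifs and printed sequence used the canonical TSS and the dm6 reference genome. Members and lists were chosen with earlier results of these data known. Values are named for the 10 strongest members, those without a thresholded summit, duplicated genes, the 3 highest and 3 lowest replicate ratios, and listed related genes with a summit. Other members have a value to account for them. A few genes that this rule selects, 3 of them missing from the plot of signals, are counted but not reported here by name. The symbol Mpp10 matched no gene of the annotation, and Rack1 was matched through a synonym table. The steps were tried on simulated peaks and run with Python 3.11.15, numpy 2.4.6, pandas 2.3.3 and scipy 1.17.1. Alternatives were other distances, the nearest gene, the most upstream TSS, the 1000 strongest peaks, each replicate alone, replicate summits within 100 bp, and other motif windows. The dm3 lists were not used.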

Additional observations from a re-analysis of the deposited data

How the results depend on the processing

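The count of 25 members with a thresholded promoter summit lay between 24 and 28 under the other promoter rules and in the lists of either replicate alone, and fell to 13 with the 1000 strongest peaks. The median percentile of their signals, 23.5 from the top, was 37.2 with a distance of 1000 bp and 33.0 with the nearest gene only, and between 23.8 and 27.0 with 1 replicate left out. The median summit position, -26 bp over the 25, was -3 bp from the most upstream TSS and between -28 and -21 bp with 1 replicate left out. The median log2 ratio of the replicates, 0.23, was 0.17 with 1000 bp. Within 100 bp of the summit the DREF site was in 8 of the 25 members and the M1BP site in 1. The shares of all genes with a promoter summit there were 11% and 6.03%. In the promoter window the sites were in 13 and 4 of the 39. From 100 bp before to 50 bp after the TSS the M1BP site was in 2. The summit windows hold fewer genes by construction, and the cause of the other shifts was not tested. No paired analysis was possible because the series has 1 group. The control was not used and read depth is unknown, so a member without a thresholded summit is not shown to lack Mad. Some members changed sides between the lists of single replicates, and for RpS6 and RpS28a this rested on peaks nearer to a neighbour.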
